A study of Mus musculus with 8 samples.

Results

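The genes described here are 9 regulators of programmed cell death: Mcl1, Bcl2, Bcl2l1, Bcl2l11, Bid, Bak1, Xiap, Birc3 and Cflar. They were taken by symbol, with no threshold on a measured value, from 20245 entries of a mouse kidney expression data set, and all 9 were found and passed the filter on low values. The data set holds 8 libraries of whole-kidney RNA from the mouse strain C57BL/6, with 2 libraries per group and the groups WT_DMSO, WT_FP, PKD_DMSO and PKD_FP. WT kidneys are wild type, and PKD stands for kidneys that the series describes as having autosomal dominant polycystic kidney disease. DMSO is the vehicle, and FP is flavopiridol, an inhibitor of cyclin-dependent kinases that include CDK9. The sources used here do not give the mutated gene, any Cre driver, age, sex, dose, route or time from the last dose. The labels do not state whether replicates were separate animals, so p-values rest on the spread between the deposited libraries alone, which may be technical.

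Proteins of the BCL2 family decide whether the outer mitochondrial membrane is opened, the step that commits most cells to apoptosis. Anti-apoptotic members (MCL1, BCL-XL, BCL2) bind and hold the pore formers BAK and BAX, and BH3-only members (BIM, BID) release that hold. Downstream and beside them, XIAP and cIAP2 restrain caspases and cell death signalling, and c-FLIP blocks the activation of caspase-8 at death receptors. MCL1 is known for rapid turnover of both its mRNA and its protein. Its transcript therefore depends on continued transcription and is often used to follow CDK9 inhibition in cultured cells, which is the reason for its place among these genes.

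Values are read here as FPKM, that is, read or fragment numbers scaled to transcript length and to library size. No header names this unit. Comparisons of levels between different genes, per length, rest on that reading. FPKM summed to between 486060 and 572823 per library, 12790 to 13813 genes reached 1 FPKM, and the number of reads behind a value is unknown, so no counting interval was computed. Differences are log2 fold changes of FPKM + 1, which understate changes of genes near 1 FPKM. They were tested with limma over 14391 genes, with Benjamini-Hochberg adjustment and a threshold of 0.05. Kidney markers were present: the summed FPKM of 6 proximal tubule genes was 1371 to 2752 in WT and 438 to 878 in PKD libraries. Under vehicle 1 of the 6, Aqp1, went the other way, from 183.07 and 275.43 FPKM in WT_DMSO to 357.46 and 381.99 in PKD_DMSO. The summed FPKM of 8 macrophage and myeloid markers was 59.8 to 107 in WT and 527 to 1025 in PKD libraries, with all 8 called higher in PKD_DMSO than in WT_DMSO. Since whole organs were used, fewer or more cells of a type and less or more RNA per cell cannot be told apart.

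The vehicle-treated groups address how the survival genes differ in the diseased organ. Of the 9 genes, 5 were higher in PKD_DMSO by limma (Birc3, Bak1, Mcl1, Bcl2l1 and Bcl2l11), 0 were lower and 4 did not pass. Over all genes tested, 14.8% were called higher and 7.52% lower, 22.3% in all. The higher share of all calls was 66.3%, and after median-of-ratios scaling it was 53.8%. The median log2 fold change was 0.73 for the 9 genes and 0.12 for all genes, a shift that became −0.01 with that scaling. In 7 of the 9 genes both PKD_DMSO libraries lay above both WT_DMSO libraries, against 41.2% of all genes, and in 1 (Cflar) below them, against 24.5%.

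**Figure D1:**
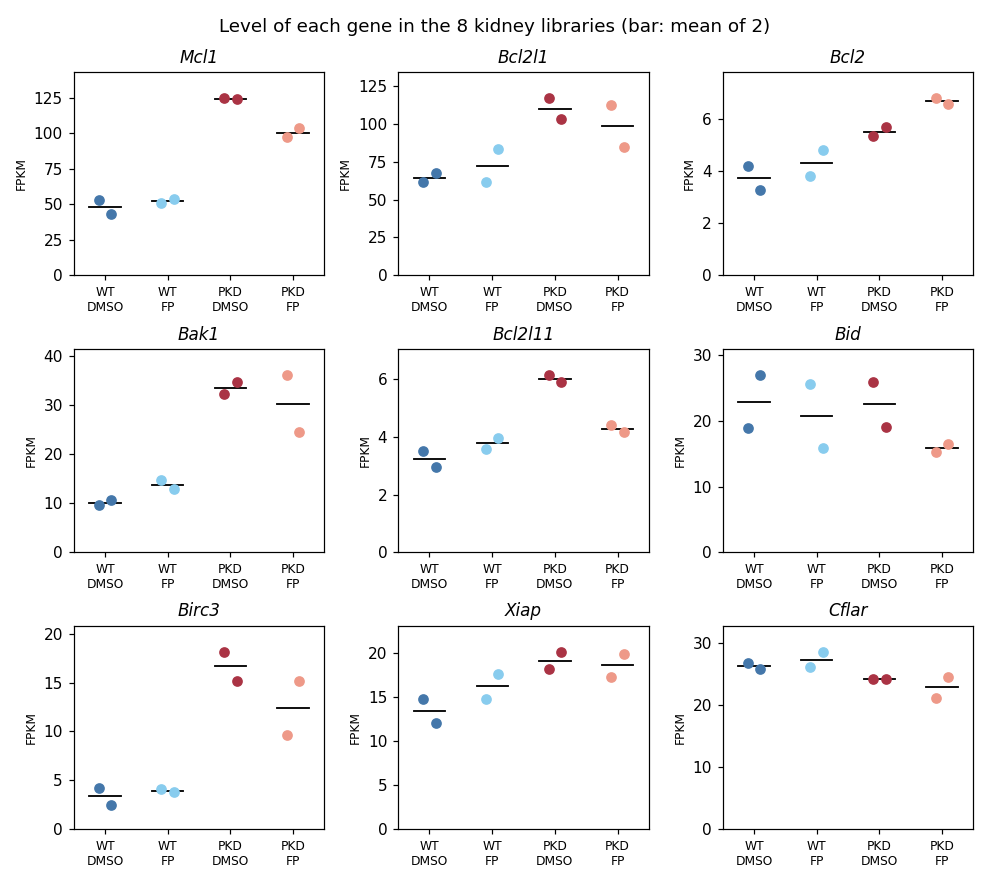
Each panel plots the FPKM (vertical axis, from 0) of 1 gene in the 8 libraries, with a point per library and a bar at the mean of the 2 libraries of a group. For Mcl1 the 4 WT libraries lay between 42.86 and 53.69 FPKM and the 4 PKD libraries between 97.06 and 124.41 FPKM.

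Mcl1 (GRCm38 chromosome 3, 95656944 to 95663179) encodes the anti-apoptotic protein MCL1. It was measured at 52.70 and 42.86 FPKM in WT_DMSO, 51.18 and 53.69 in WT_FP, 124.41 and 123.84 in PKD_DMSO, and 97.06 and 103.34 in PKD_FP, in the order replicate 1 and 2. Every PKD library lay above every WT library. Group means were 47.8 ± 6.96 FPKM for WT_DMSO and 124 ± 0.403 for PKD_DMSO (SD, n = 2). Mcl1 thus rose by 1.37 on the log2 scale, with a standard error of 0.15 (Benjamini-Hochberg adjusted p = 0.00347 by limma). Mcl1 passed under each of the 16 alternatives run for this comparison, with log2 fold changes from 1.22 to 1.51. Among all genes tested, 94.9% had a lower log2 fold change than Mcl1.

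The bases before the Mcl1 start site are shown because Mcl1 is the gene on which the comparisons turn. The stretch is 250 bases on the plus strand at chr3:95658471-95658720, from RefSeq (GRCm38.p6). GENCODE M21 places no exon in it, while the RefSeq gene span begins further upstream. Capitals mark the letters CCGGAAG, an ETS-type motif, and GGAAACGCCC, a match on the other strand to an NF-kB-type motif (GGGNN followed by TTTCC).
Mcl1: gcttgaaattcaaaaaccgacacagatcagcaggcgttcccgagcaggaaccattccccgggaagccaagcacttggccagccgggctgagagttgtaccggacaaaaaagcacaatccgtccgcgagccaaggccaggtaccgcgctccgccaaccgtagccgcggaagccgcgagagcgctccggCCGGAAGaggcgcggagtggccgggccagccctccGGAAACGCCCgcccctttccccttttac
Both strands of windows of 300 bases (250 before to 50 after a start) were searched. The letters CCGGAAG were in 8.86% of 32851 windows and the NF-kB-type letters in 1.63%. Both also matched in windows of Bcl2l1, and CCGGAAG in 1 of Bcl2l11. The cAMP-response letters TGACGTCA (1.79% of windows), the AP-1 letters TGANTCA (7.81%) and the STAT letters TTCNNNGAA (8.30%) had no match in any of the 14 windows of the 9 genes. Letters for GC boxes (GGGCGG, 35.7% of windows) matched in windows of Bcl2, Bcl2l11, Bid, Mcl1 and Xiap, and CCAAT (37.4%) in those of Bcl2l11. In Mcl1 the GC box letters, on the other strand, overlap the NF-kB-type match. A match is a description of letters, and no match says only that they are not in this window.

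Bcl2l1 (chromosome 2, 152758732 to 152833803) encodes BCL-XL, the other abundant anti-apoptotic protein of these kidneys by transcript level. Its levels were 61.54 and 67.38 FPKM in WT_DMSO, 61.65 and 83.18 in WT_FP, 116.67 and 103.18 in PKD_DMSO, and 112.14 and 84.34 in PKD_FP. The vehicle groups did not overlap, and the lowest PKD library, PKD_FP replicate 2, stood next to WT_FP replicate 2. The log2 fold change between PKD_DMSO and WT_DMSO was 0.76 ± 0.21 (adjusted p = 0.0442 by limma). That call ended after median-of-ratios scaling (0.61), without the low-value filter, with replicate number as a block and with that block crossed between groups (0.76 in each). It also ended without WT_DMSO replicate 1 (0.70) or 2 (0.82) and without PKD_DMSO replicate 1 (0.67) or 2 (0.85), and the adjusted p over the alternatives reached 0.171 at most.

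Bcl2 (chromosome 1, 106538176 to 106714290), the founding anti-apoptotic member, was low: 4.2 and 3.27 FPKM in WT_DMSO, 3.79 and 4.78 in WT_FP, 5.33 and 5.67 in PKD_DMSO, and 6.77 and 6.55 in PKD_FP. The 4 PKD libraries lay above the 4 WT libraries. The log2 fold change under vehicle was 0.46 with a 95% interval of 0.04 to 0.89, and did not pass (adjusted p = 0.108 by limma).

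Bak1 (chromosome 17, 27019812 to 27028627) encodes BAK, a pore-forming protein that MCL1 and BCL-XL hold in check. It was measured at 9.67 and 10.56 FPKM in WT_DMSO, 14.68 and 12.79 in WT_FP, 32.28 and 34.67 in PKD_DMSO, and 36.09 and 24.45 in PKD_FP. PKD libraries were above WT libraries without overlap. Bak1 rose by 1.63 ± 0.20 on the log2 scale in PKD_DMSO (adjusted p = 0.00442 by limma), from 10.12 ± 0.629 to 33.5 ± 1.69 FPKM, and passed under all 16 alternatives (1.49 to 1.72). Its ratio to Mcl1, as FPKM over FPKM, was 0.184 and 0.246 in WT_DMSO, 0.287 and 0.238 in WT_FP, 0.260 and 0.280 in PKD_DMSO, and 0.372 and 0.237 in PKD_FP.

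Of the BH3-only genes, Bcl2l11 (chromosome 2, 128126038 to 128162547) encodes BIM, which binds all anti-apoptotic members. Its levels were 3.5 and 2.97 FPKM in WT_DMSO, 3.59 and 3.98 in WT_FP, 6.14 and 5.91 in PKD_DMSO, and 4.42 and 4.16 in PKD_FP. PKD_DMSO stood apart from the other 3 groups. Bcl2l11 was called higher in PKD_DMSO than in WT_DMSO, with a log2 fold change of 0.73 ± 0.16 (adjusted p = 0.0224 by limma). That call ended after quantile normalization (0.53), in the fit of the groups compared (0.73), without WT_DMSO replicate 1 (0.82) or 2 (0.64) and without PKD_DMSO replicate 1 (0.71) or 2 (0.76), with adjusted p up to 0.12.

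Bid (chromosome 6, 120893119 to 120917062) encodes the BH3-only protein that caspase-8 cleaves to link death receptors to mitochondria. It was measured at 18.93 and 26.94 FPKM in WT_DMSO, 25.60 and 15.82 in WT_FP, 25.95 and 19.11 in PKD_DMSO, and 15.28 and 16.41 in PKD_FP. Its vehicle groups overlapped, and the log2 fold change between PKD_DMSO and WT_DMSO was −0.02 with an interval of −0.68 to 0.64 (adjusted p = 0.967 by limma).

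Birc3 had the largest log2 fold change of the 9 genes under vehicle. Birc3 (chromosome 9, 7847468 to 7873205) encodes cIAP2, a ubiquitin ligase that acts at TNF receptors and is a known target of NF-kB. It was measured at 4.23 and 2.48 FPKM in WT_DMSO, 4.08 and 3.79 in WT_FP, 18.12 and 15.18 in PKD_DMSO, and 9.67 and 15.13 in PKD_FP. Each PKD library exceeded each WT library. Birc3 rose by 2.04 ± 0.27 on the log2 scale (adjusted p = 0.00565 by limma), from 3.36 ± 1.24 to 16.6 ± 2.08 FPKM, and passed under all 16 alternatives (1.75 to 2.34). Macrophages, which can express Birc3, had their markers higher in the same libraries, and their part in the result was not tested.

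The Birc3 stretch before its start site is shown beside that of Mcl1 for contrast in base composition. It holds 215 bases on the minus strand at chr9:7873206-7873420, outside the RefSeq gene span.
Birc3: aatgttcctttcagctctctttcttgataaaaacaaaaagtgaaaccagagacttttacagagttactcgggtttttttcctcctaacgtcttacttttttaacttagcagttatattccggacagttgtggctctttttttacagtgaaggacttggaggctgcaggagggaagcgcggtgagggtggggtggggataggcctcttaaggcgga
Its GC content was 44.2%, against 64.4% for the Mcl1 stretch, and none of the motif letters named above was in its window. The median GC content of all windows was 52.7%.

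Xiap (chromosome X, 42059613 to 42109664) encodes a direct inhibitor of caspases. It was measured at 14.75 and 12.12 FPKM in WT_DMSO, 14.84 and 17.70 in WT_FP, 18.17 and 20.14 in PKD_DMSO, and 17.33 and 19.93 in PKD_FP. The vehicle groups did not overlap and the FP groups did. Its log2 fold change under vehicle was 0.49 with an interval of 0.09 to 0.88 and did not pass (adjusted p = 0.0782 by limma).

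Cflar (chromosome 1, 58711311 to 58758884) encodes c-FLIP. It was measured at 26.80 and 25.78 FPKM in WT_DMSO, 26.18 and 28.58 in WT_FP, 24.20 and 24.24 in PKD_DMSO, and 21.22 and 24.52 in PKD_FP. Its whole range over 8 libraries was thus 21.22 to 28.58 FPKM, with the PKD libraries below the WT libraries. The log2 fold change under vehicle was −0.11 with an interval of −0.43 to 0.21 (adjusted p = 0.571 by limma). That interval excluded a 2-fold difference in either direction, relative to library size.

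In WT_DMSO the order of levels per length was Bcl2l1, Mcl1, Cflar, Bid, Xiap, Bak1, Bcl2, Birc3 and Bcl2l11. There the ranges of Cflar and Bid overlapped, as did those of Bcl2, Birc3 and Bcl2l11. In PKD_DMSO the order was Mcl1, Bcl2l1, Bak1, Cflar, Bid, Xiap, Birc3, Bcl2l11 and Bcl2. Mcl1 stood above Bcl2l1 (103.18 to 116.67 FPKM) without overlap, the ranges of Bid, Cflar and Xiap met through Bid, and the range of Xiap began just above the highest Birc3 value. Bak1 had rank 6 in WT_DMSO and rank 3 in PKD_DMSO.

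The sum of the anti-apoptotic BCL2 transcripts that passed the filter (Mcl1, Bcl2l1, Bcl2, Bcl2l2 and 3 Bcl2a1 copies) was 132 and 129 FPKM in WT_DMSO, 133 and 158 in WT_FP, 286 and 286 in PKD_DMSO, and 249 and 242 in PKD_FP. PKD libraries held the larger sum in both treatments. Mcl1 made up 39.9% and 33.3% of this sum in WT_DMSO and 43.5% and 43.2% in PKD_DMSO, and 39.0% and 42.8% in PKD_FP. Bcl2l1 made up 46.6% and 52.3% in WT_DMSO, 40.8% and 36% in PKD_DMSO, and 45.1% and 34.9% in PKD_FP. The ratio of Bcl2l1 to Mcl1 was 1.17 and 1.57 in WT_DMSO and 0.938 and 0.833 in PKD_DMSO. PKD_FP gave 1.16 and 0.816, so that group straddled the line at which both transcripts are equal. These shares are descriptions, with no test.

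**Figure D2:**
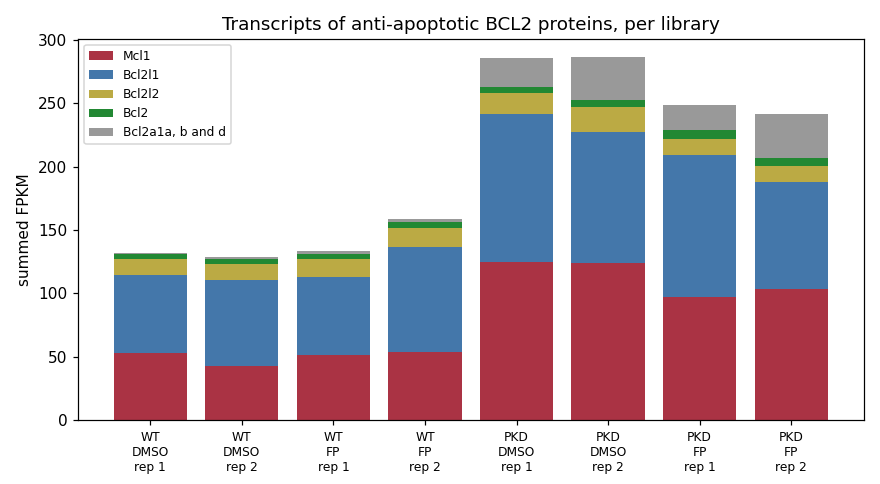
Stacked bars, from 0, give the summed FPKM of the anti-apoptotic BCL2 transcripts in each of the 8 libraries, split by gene. The 2 PKD_DMSO bars reach 286 FPKM each, and the 4 WT bars lie between 129 and 158 FPKM.

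Giving FP to PKD kidneys asks whether CDK9 inhibition lowers these transcripts in the diseased organ. None of the 9 genes passed in PKD_FP against PKD_DMSO by limma, where 0.0139% of all genes (2 of 14391) were called, 0.00695% higher and 0.00695% lower. At an unadjusted p under 0.05, 1 of the 9 genes passed, Bcl2l11, as did 1488 genes with higher and 1316 with lower values. The log2 fold change was below 0 for 8 of the 9 genes, with a median of −0.17 against 0.04 over all genes. In 4 of them (Mcl1, Bcl2l11, Bid and Birc3) both PKD_FP libraries lay below both PKD_DMSO libraries, against 25.2% of all genes. Bcl2 lay the other way without overlap, against 31.4% of all genes.

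Mcl1 averaged 100.2 ± 4.44 FPKM in PKD_FP and 124 ± 0.403 in PKD_DMSO, 19.3% lower without overlap of the groups. Its log2 fold change was −0.31 with a 95% interval of −0.67 to 0.05 (adjusted p = 0.316 by limma). The interval, from 2 libraries per group, excluded a 2-fold fall relative to library size. A fall shared by all transcripts would not show in FPKM. Over the 15 alternatives the log2 fold change of Mcl1 stayed below 0, from −0.45 to −0.26, with adjusted p from 0.17 to 0.643. Of all genes tested, 20.1% had a lower log2 fold change than Mcl1 in this comparison. PKD_FP levels of Mcl1 remained above every WT library.

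Bcl2l11 averaged 4.29 ± 0.184 FPKM in PKD_FP and 6.03 ± 0.163 in PKD_DMSO, which gave −0.41 on the log2 scale with an interval of −0.79 to −0.03 (limma, unadjusted p = 0.0387, adjusted p = 0.233). Birc3 averaged 12.4 ± 3.86 against 16.6 ± 2.08 FPKM, a log2 difference of −0.42 (−1.07 to 0.22). PKD_FP replicate 1 carried most of that difference, since replicate 2, at 15.13 FPKM, stood next to PKD_DMSO replicate 2 at 15.18. Without PKD_FP replicate 1 the Birc3 value was −0.12, and without replicate 2 it was −0.72. Bid averaged 15.8 ± 0.799 against 22.5 ± 4.84 FPKM, a log2 difference of −0.47 (−1.13 to 0.19). Bcl2 averaged 6.66 ± 0.156 against 5.5 ± 0.24 FPKM, a log2 difference of 0.24 (−0.19 to 0.66). For Bcl2l1, Bak1, Xiap and Cflar the groups overlapped, with log2 fold changes of −0.17, −0.17, −0.04 and −0.08. None of the 4 intervals reached a 2-fold change relative to library size. The sum of macrophage markers was 531 and 1025 FPKM in PKD_DMSO and 527 and 705 in PKD_FP, and proximal tubule markers summed to 878 and 688 against 588 and 438 FPKM. Red cell markers summed to 146 and 211 FPKM in PKD_DMSO and 676 and 654 in PKD_FP. Of these, 3 of 3 tested had an unadjusted p under 0.05, beside 1488 higher and 1316 lower of all 14391 genes, and none was called. T cell markers, which were low, summed to 5.25 and 7.38 FPKM in PKD_DMSO and 14.41 and 13.60 in PKD_FP. The part of any of these cell types in the differences of the 9 genes was not tested.

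In WT kidneys FP was given to organs without the disease, and 0 of the 9 genes passed by limma, with 0% of all genes called. At an unadjusted p under 0.05 the count was 0 of 9, beside 131 higher and 52 lower genes overall. Mcl1 averaged 52.4 ± 1.77 FPKM in WT_FP and 47.8 ± 6.96 in WT_DMSO, with overlapping groups. Its log2 fold change was 0.14 (−0.22 to 0.50) and its interval excluded a 2-fold change either way, relative to library size. Bak1 had the largest value of the 9 genes, at 0.40 (−0.07 to 0.88), from 10.12 ± 0.629 to 13.7 ± 1.34 FPKM without overlap. Both WT_FP libraries also lay above both WT_DMSO libraries for Bcl2l11 (0.18) and Xiap (0.26). These 3 genes compare with 16.6% of all genes, and 0 of the 9 lay below without overlap, against 5.32%.

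Whether FP acted differently in the 2 genotypes was tested as an interaction, and 0 of the 9 genes and 0% of all genes passed by limma. At an unadjusted p under 0.05 the interaction counted 1 of the 9 genes, Bcl2l11, beside 640 genes above and 976 below 0 among the 14391. For Mcl1 the interaction was −0.45 with an interval of −0.95 to 0.06 (adjusted p = 0.494). Averaged over both genotypes, the FP difference of Mcl1 was −0.08 (−0.34 to 0.17, limma, adjusted p = 0.761), and again 0 of 9 genes and 0% of all genes passed, with 0 of the 9 at an unadjusted p under 0.05 beside 933 higher and 497 lower genes.

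**Figure D3:**
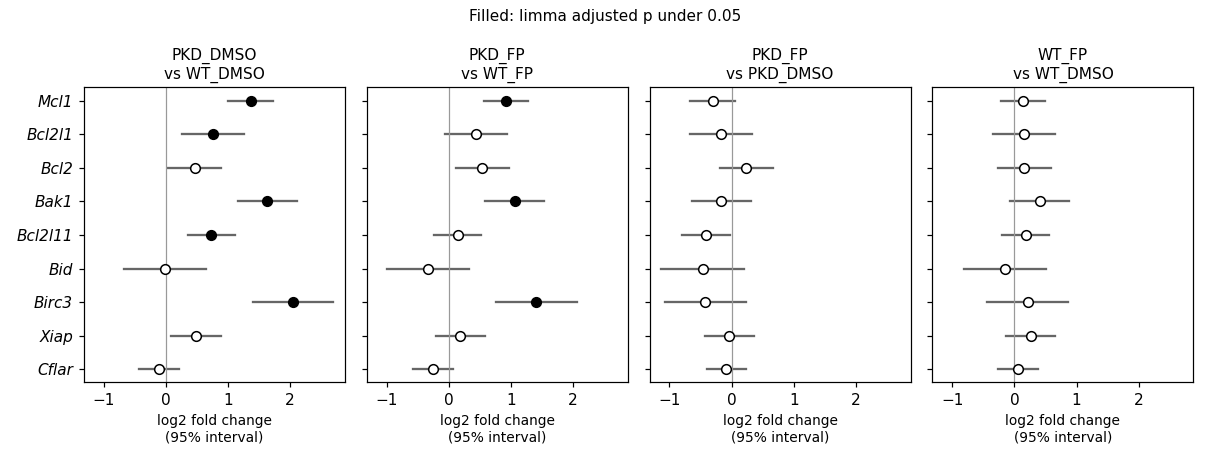
Points give the log2 fold change of FPKM + 1 of each gene (rows) in 4 comparisons (panels) and lines its 95% interval, with filled points past an adjusted p of 0.05 by limma. Filled points stand in the 2 panels that compare PKD with WT (5 genes under vehicle, 3 under FP), and both panels that compare FP with vehicle hold open points alone.

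Between genotypes under FP, 3 of the 9 genes were called higher in PKD_FP than in WT_FP by limma, against 8.71% of all genes, and 0 were called lower, against 5.23% (13.9% in all). Birc3 differed by 1.41 ± 0.27 (adjusted p = 0.0227), Bak1 by 1.06 ± 0.20 (adjusted p = 0.0208) and Mcl1 by 0.92 ± 0.15 (adjusted p = 0.0157) on the log2 scale. Mcl1 averaged 100.2 ± 4.44 FPKM against 52.4 ± 1.77. The Bak1 call also ended after median-of-ratios scaling (0.97) and in the fit of the groups compared (1.06). The count was 0 without WT_FP replicate 1 or PKD_FP replicate 1, and 1 without WT_FP replicate 2 or PKD_FP replicate 2. In 6 of the 9 genes PKD_FP lay above WT_FP without overlap, against 34.6% of all genes, and in 1 (Cflar) below, against 25.2%. Bcl2l1 was at 0.44 (−0.07 to 0.94) and Bcl2l11 at 0.15 (−0.24 to 0.53), and neither passed. This comparison and the one under vehicle share no library, but both tests use the same estimate of spread, from all groups in 1 fit.

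Other genes of the apoptosis pathway came from a list of 39, of which 34 were tested. Under vehicle 9 were called higher and 1 lower in PKD, against 14.8% and 7.52% of all genes. The median log2 fold change was 0.26 against 0.12 for all genes, and 5 listed genes did not reach the filter. The anti-apoptotic Bcl2a1 genes, known from leukocytes, were called higher. Bcl2a1b was at 0.33 and 1.77 FPKM in WT_DMSO and at 15.41 and 24.53 in PKD_DMSO (log2 difference 3.42 ± 0.41, adjusted p = 0.00433 by limma). Bcl2a1d and Bcl2a1a stood at 2.04 and 2.0. The value of any single copy is uncertain, as reads can be shared among near-identical copies. They moved with the macrophage markers, whose part was not tested. Bcl2l2, encoding the anti-apoptotic BCL-W, was at 12.60 and 13.30 FPKM in WT_DMSO and 16.70 and 19.65 in PKD_DMSO and did not pass (0.46, adjusted p = 0.0563).

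Among BH3-only genes 2 of 5 were called higher under vehicle, against 14.8% of all genes. Pmaip1, which encodes NOXA, the BH3-only protein that binds MCL1, was at 2.54 and 3.14 FPKM in WT_DMSO and 22.29 and 16.07 in PKD_DMSO (log2 difference 2.38 ± 0.24, adjusted p = 0.00261 by limma). In PKD_FP Pmaip1 was at 11.97 and 14.86 FPKM, below both PKD_DMSO libraries, a log2 fold change of −0.48 that did not pass (adjusted p = 0.326). Bbc3, encoding PUMA, rose by 1.5 ± 0.25 under vehicle (adjusted p = 0.0104). Of the other pore formers, Bok was called at 1.99 ± 0.39, from 25.70 and 13.06 FPKM to 58.15 and 99.06.

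Bax, the partner of Bak1, was at 87.93 and 70.64 FPKM in WT_DMSO and 75.93 and 79.65 in PKD_DMSO (log2 fold change −0.02, limma, adjusted p = 0.947). It was at 136.78 and 114.25 FPKM in PKD_FP, above the other 6 libraries, without passing against PKD_DMSO (0.68, adjusted p = 0.132). Bax thus exceeded Bak1 by 9.09 and 6.69 times in WT_DMSO and by 2.35 and 2.30 times in PKD_DMSO, in FPKM over FPKM. In PKD_FP the ratio was 3.79 and 4.67. Among caspase activators, Cycs, encoding cytochrome c, was lower in PKD_DMSO (−1.23 ± 0.14, adjusted p = 0.00367) and Apaf1, its partner in the apoptosome, was higher (0.96 ± 0.25, adjusted p = 0.0365). Death receptor genes had 2 of 8 called higher by limma, against 14.8% of all genes. These were the TNF receptor gene Tnfrsf1a (1.0 ± 0.18, adjusted p = 0.0124) and Tnf (1.2 ± 0.32, adjusted p = 0.0409). Of 5 other inhibitor of apoptosis genes tested, 0 were called under vehicle and 0 at an unadjusted p under 0.05, and Birc2, encoding cIAP1, stood at 0.74 (adjusted p = 0.132). In PKD_FP against PKD_DMSO 0 of the 34 pathway genes were called by limma and 8 had an unadjusted p under 0.05, beside the 1488 higher and 1316 lower of all 14391 genes. In WT_FP against WT_DMSO both counts were 0. Under FP, 10 were called higher and 1 lower in PKD, against 8.71% and 5.23% of all genes.

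Transcripts with short half-lives were set beside Mcl1, since CDK9 inhibition bears on all of them. In PKD_FP against PKD_DMSO 0 of 24 tested were called by limma and 1 had an unadjusted p under 0.05. Of the 24, 12 lay below 0. Over all 14391 genes, 2 were called in this comparison, and 1488 higher and 1316 lower genes had an unadjusted p under 0.05. The median log2 fold change of the 24 was 0.000573 against 0.04 for all genes. The range ran from −0.91 for Tnfaip3 to 0.48 for Gadd45b. Tnfaip3, which encodes the NF-kB inhibitor A20, was at 8.54 and 5.33 FPKM in PKD_DMSO and 2.67 and 3.63 in PKD_FP. Its log2 fold change of −0.91 did not pass (adjusted p = 0.164 by limma). Tnfaip3 and Gadd45b were picked out with their values known. Myc was at 30.18 and 24.64 FPKM in PKD_DMSO and 28.06 and 31.05 in PKD_FP (0.11, adjusted p = 0.80). Jun stood at 0.10 and Ier2 at 0.22. In WT_FP against WT_DMSO 0 of 24 were called, 1 at an unadjusted p under 0.05, with a median of 0.30 against 0.09 for all genes. Over all genes, 0% were called there, and 131 higher and 52 lower ones had an unadjusted p under 0.05. Under vehicle 15 of 24 were called higher in PKD and 0 lower, against 14.8% and 7.52% of all genes. The median there was 1.55, against 0.12 for all genes. The largest log2 fold changes among those called were of Socs3 (3.90), Cdkn1a, Maff and Atf3 (2.98). Under FP 13 were called higher and 0 lower, against 8.71% and 5.23% of all genes. The largest there were of Socs3 (3.71), Egr1 (2.71), Fos (2.65) and Atf3 (2.61) on the log2 scale.

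**Figure D4:**
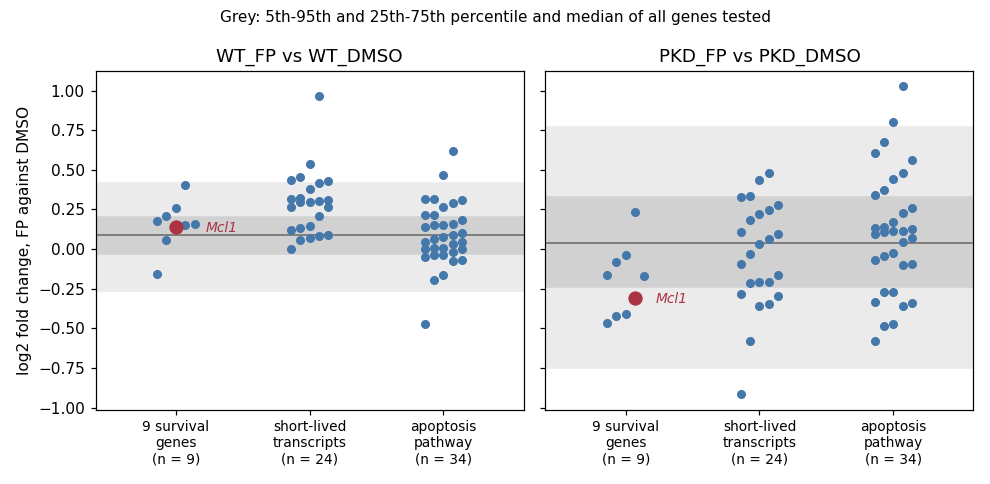
The vertical axis gives the log2 fold change of FP against DMSO in WT (left) and PKD (right) for the 9 survival genes, 24 short-lived transcripts and 34 apoptosis genes, with a point per gene and Mcl1 in red. Grey bands give the 5th to 95th and 25th to 75th percentiles of 14391 genes. Mcl1 lies at 0.14 in WT, within the inner band, and at −0.31 in PKD, just below the inner band, which ends at −0.24.

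Targets of NF-kB, the factor known to drive Birc3 and Bcl2a1 genes, had 11 of 16 members called higher and 1 lower in PKD_DMSO. The shares over all genes were 14.8% and 7.52%. The median log2 fold change of the 16 was 1.38, against 0.12 for all genes. Cxcl1 rose by 3.40, Ccl2 by 2.89, Bcl3 by 2.50 and Csf1 by 2.48 on the log2 scale. Whether NF-kB had a part in the levels of Birc3 or the Bcl2a1 genes was not tested. The lists overlap: Nfkbia, Tnfaip3 and Ier3 are also among the short-lived transcripts, and Birc2 among the apoptosis genes. Nfkbia, the inhibitor gene that NF-kB induces, was at 106.48 and 47.19 FPKM in WT_DMSO and 90.84 and 70.84 in PKD_DMSO, with overlap (0.17, limma, adjusted p = 0.793). The member called lower was the mitochondrial superoxide dismutase gene Sod2 (−1.36, adjusted p = 0.00367), named after its value was seen. In PKD_FP against PKD_DMSO 0 of 16 were called by limma and 2 had an unadjusted p under 0.05. In WT_FP against WT_DMSO both counts were 0. Over all 14391 genes, that p was reached by 1488 higher and 1316 lower genes in PKD, and by 131 and 52 in WT. Under FP, 8 were called higher and 1 lower in PKD, against 8.71% and 5.23% of all genes.

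The kinase that FP inhibits was itself measured: Cdk9 was at 27.26 and 25.36 FPKM in PKD_DMSO and 30.80 and 38.80 in PKD_FP (0.38, limma, adjusted p = 0.323). Its cyclin gene Ccnt1 was at 5.79 and 6.90 against 8.72 and 12.17 FPKM. Hexim1, which encodes the inhibitor of the CDK9 complex, was at 33.03 and 31.41 against 23.01 and 30.58 FPKM (−0.27, adjusted p = 0.40). None of these passed, and transcript levels do not measure kinase activity.

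Genes whose levels followed those of a member most closely over the 8 libraries were found by Pearson's r of log2(FPKM + 1), a description in which all libraries share the genotype difference. Members, predicted genes and small RNAs were skipped. Nearest to Mcl1 were St6gal1 (r = 0.996), Colgalt1 (0.995) and Slc25a24 (0.995). St6gal1 was at 18.72 and 19.31 FPKM in PKD_DMSO and 13.28 and 14.42 in PKD_FP. Nearest to Birc3 were Colgalt1 (0.991), Ankrd13b (0.990) and Cp (0.989), which encodes ceruloplasmin. Nearest to Bcl2l1 were Pigs, Fdps and Gpat4 (0.990, 0.989 and 0.981), and nearest to Bcl2 were Yy1, Zfp622 and Isy1 (0.998, 0.993 and 0.990).

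The 9 genes differ in the AU-rich letters that mark many unstable mRNAs. In the GENCODE M21 transcript with the longest coding sequence, the 3′ UTR of Mcl1 (2353 bases) held ATTTA 8 times, or 3.40 per kilobase, and that of Birc3 (564 bases) 4 times, or 7.09 per kilobase. Xiap stood at 3.42 and Bcl2 at 2.95 per kilobase, Bcl2l11 at 1.42 and Bcl2l1 at 0.679, and Bak1, Bid and Cflar at 0. The Cflar transcript used has a 3′ UTR of only 54 bases, too short for its 0 to say much. The median over 20639 protein-coding genes was 1.12 per kilobase. The longer letters TTATTTATT, read on the transcript strand, were in Bcl2 and Birc3, and in 6.91% of all genes, but not in Mcl1. They are shown in capitals because they tell these transcripts apart from the other 7, within 30 bases each at chr9:7848780-7848809 (Birc3) and chr1:106542994-106543023 (Bcl2), both on the minus strand of GRCm38.
Birc3: gaaattcctgTTATTTATTggatgacattt
Bcl2: aaaaaaagatTTATTTATTtaagacagttc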

How the data were processed

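The authors deposited 1 table per library with a gene symbol and a value, read here as FPKM. No header names the unit: values have decimals and sum to different totals. Per the submitters' processing notes, Bowtie2, DESeq2 and mm10 were used, in roles that are not stated; the sources used here name no counting tool or annotation. Kidney RNA was extracted with TRIzol and selected with oligo(dT), per the labels' protocols. Read depth is unknown.

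Deposited FPKM values were transformed to log2(FPKM + 1) and not rescaled. A gene was tested if 2 or more of the 8 libraries reached 1 FPKM (14391 genes). Left out were 4 entries of 2 repeated symbols and 1 dash. Group means were fitted with limma 3.58.1 (R 4.3.3, trend and robust settings, 6 contrasts, two-sided, all groups in 1 fit), with Benjamini-Hochberg adjustment over all genes tested. The procedure was tested on simulated data. Permuting single values of 2 against 2 libraries cannot give p below 0.33. All 9 symbols matched RefSeq (GRCm38.p6, the assembly of mm10), which gave coordinates and promoter letters. Motif letters were chosen after promoter sequences had been seen. AU-rich letters were counted on GENCODE M21 transcripts.

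The members and gene lists (apoptosis pathway, short-lived transcripts, NF-kB targets, genes of P-TEFb and cell type markers) were chosen with earlier results of these data known. Named beside the members were called list genes with the largest log2 fold changes, up to 6 (apoptosis, groups not overlapping) or 4 per list, Myc, Jun, Ier2 and Nfkbia, genes of P-TEFb, and the 3 nearest patterns among genes of at least 5 FPKM on average. Other apoptosis genes were named for their role after values were seen. The alternatives were no low-value filter, replicate block, fits of the groups compared, a pseudocount of 0.1, median-of-ratios scaling, quantile normalization, no trend or robust setting, and each library left out.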

Additional observations from a re-analysis of the deposited data

Results flagged for a closer look

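Bcl2l11, which encodes BIM, had higher values with FP in WT and lower values with FP in PKD, without overlap in either genotype. It was at 3.5 and 2.97 FPKM in WT_DMSO and 3.59 and 3.98 in WT_FP, and at 6.14 and 5.91 in PKD_DMSO and 4.42 and 4.16 in PKD_FP. The interaction was −0.587 on the log2 scale with a 95% interval of −1.13 to −0.05 (limma, unadjusted p = 0.0367, adjusted p = 0.429), so the difference between genotypes did not pass. It ranged from −0.70 to −0.44 over 14 alternatives and passed in none of them.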

How the results depend on the processing

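Mcl1, Bak1 and Birc3 kept their call between PKD_DMSO and WT_DMSO under every alternative run. The number of the 9 genes called there was 5, and 3 to 5 with 1 library left out (3 without any of the 4 libraries compared). Between PKD_FP and WT_FP the number was 3, and 0 to 3 with 1 library left out. For Mcl1 that difference ranged from 0.88 to 0.97 with 1 library left out. With replicate number as a block, 4 genes were called under vehicle (Bcl2l1 was lost), 3 under FP between genotypes and 0 for FP against vehicle in either genotype. Replicate deviations correlated at −0.184, 0.0901, −0.515 and 0.485 in the 4 pairs of groups, and with 2 libraries per group these values do not settle whether the numbers pair libraries. With numbers crossed between groups, chosen after seeing the data, 4 genes were called under vehicle (Bcl2l1 was lost) and 0 for FP in WT. Counts of all genes called ranged from 489 to 3222 (3212) under vehicle, 187 to 2245 (2007) between genotypes under FP and 0 to 5 (2) for FP in PKD, where the value in brackets is the reported one.

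Over the gene values computed under alternatives, 756 kept direction and side of the threshold, 26 lost a call and 28 changed sign. None of those 28 signs belonged to a called value. For Cflar, FP against vehicle in WT was −0.062 after median-of-ratios scaling and −0.00067 after quantile normalization.

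The other sign changes came with 1 library left out, and the cause was not tested. For FP in WT the lowest and highest values were −0.0075 and 0.28 for Mcl1, −0.062 and 0.36 for Bcl2l1, −0.49 and 0.17 for Bid, −0.084 and 0.50 for Birc3, and −0.0056 and 0.12 for Cflar. For FP in PKD they were −0.38 and 0.031 for Bcl2l1, −0.44 and 0.11 for Bak1, −0.14 and 0.056 for Xiap, and −0.18 and 0.017 for Cflar. Bid ranged from −0.26 to 0.22 between genotypes under vehicle and from −0.66 to 0.0013 under FP. Interactions ranged from −0.064 to 0.22 for Bcl2 and −0.64 to 0.021 for Bid. FP averaged over genotypes ranged from −0.12 to 0.096 for Bcl2l1, −0.016 to 0.26 for Bak1, −0.26 to 0.042 for Birc3 and −0.064 to 0.036 for Cflar. Where a library left out leaves 1 in its group, the remaining library is assumed to vary like the other groups.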

Other observations

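Of the cell type markers, lymphocyte genes were low: those of T cells summed to 3.73 to 5.85 FPKM in WT libraries, 5.25 and 7.38 in PKD_DMSO and 14.41 and 13.60 in PKD_FP, and those of B cells to 0.88 to 2.12 FPKM over all 8. Neutrophil markers summed to 9.84 to 21.43 FPKM in WT and 9.53 to 82.36 in PKD libraries. Of these, S100a8 and S100a9 had higher means in PKD_DMSO than in WT_DMSO, and Cxcr2 and Ly6g lower ones. Under vehicle, limma called 3 of 6 proximal tubule, 2 of 4 thick ascending limb and distal tubule, 2 of 5 collecting duct, 2 of 3 podocyte and 3 of 3 tested red cell markers lower in PKD. It called 2 of 5 fibroblast and 1 of 3 proliferation markers higher, and 0 of 5 endothelial, 0 of 4 neutrophil, 0 of 5 T cell and 0 of 1 tested B cell markers in either direction. Over all genes tested, 14.8% were called higher and 7.52% lower. In PKD_FP against PKD_DMSO 0 markers of these lists were called. The 3 tested red cell markers had a median log2 fold change of 1.52, with 3 of 3 at an unadjusted p under 0.05. Of the 5 tested T cell markers, 2 reached that p, beside 1488 higher and 1316 lower of all 14391 genes. Under FP, 4 of 5 tested T cell markers were called higher in PKD and 0 lower, against 8.71% and 5.23% of all genes. No listed marker that was found was at 0 in every library.

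Birc5, encoding the mitosis-linked family member survivin, was at 9.68 and 9.12 FPKM in PKD_DMSO and 23.90 and 17.06 in PKD_FP, above the other 6 libraries. It was called between PKD_FP and WT_FP (1.28, limma, adjusted p = 0.0212) and not between PKD_FP and PKD_DMSO (1.03, adjusted p = 0.126). Ripk1, which encodes a kinase of TNF receptor signalling, was at 11.20 and 12.91 FPKM in PKD_DMSO and 7.65 and 7.77 in PKD_FP, against 7.16 to 8.76 in the WT libraries, and passed in no comparison of PKD_DMSO (0.55 against WT_DMSO, adjusted p = 0.051). Birc5 and Ripk1 were named after their values were seen.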
